A study of Mus musculus with 9 samples.

Results

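The 10 genes followed here are often read as signs of mesenchymal stroma and its matrix: the receptors and surface proteins Pdgfra, Pdgfrb, Lepr and Vcam1, the matrix proteins Sparc, Fn1, Postn, Dcn and Lum, and the transcription factor Prrx1. Every probe set that the platform annotation gives to 1 of these symbols was taken, which made 27 probe sets of 10 genes among 45037 probe sets and 18193 genes measured. A probe set is a group of short array probes for a transcript, and each gene had between 1 and 6 of them. The genes did not behave as 1 stromal group on these arrays. Dcn, Lepr, Lum, Postn and Prrx1 did not leave the range of probe sets for silent genes in any library, while Sparc, Pdgfra and Fn1 were brightest in the embryonic stem cell line. They are therefore called the stroma and matrix genes by their list only. In each library most of all probe sets also lay within the range for silent genes, with 25.8% to 39% above it.

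The study set very small embryonic-like stem cells (VSEL), a population of small cells described in bone marrow, beside haematopoietic stem cells (HSC) and the embryonic stem cell line ESC-D3 (ESC), with 3 arrays each. VSEL were sorted as Sca-1+Lin-CD45- cells and HSC as Sca-1+Lin-CD45+ cells from bone marrow mononuclear cells of C57BL/6 mice at 4 weeks of age, so only CD45, the pan-leukocyte surface protein, set the gates apart. ESC-D3 is 1 established line of strain 129S2/SvPas from an embryo before implantation, cultured on gelatin (0.1%) in medium with 10 ng/ml of leukaemia inhibitory factor. Strain and culture therefore differ between ESC and both marrow populations, and cannot be told apart from cell type. Each library was amplified by PCR from 20 sorted cells. In such bulk samples, fewer cells of a type and less RNA per cell cannot be told apart. Whether the libraries of a cell type came from separate mice or cultures is not stated, and the p-values below therefore rest on a spread that may be technical.

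The platelet-derived growth factor receptors encoded by Pdgfra and Pdgfrb are tyrosine kinases of mesenchymal cells, and Lepr, the leptin receptor, marks the perivascular stromal cells that make niche factors for blood stem cells in adult mouse marrow. Vcam1 encodes an adhesion protein that binds integrins on blood cells and is carried by stroma, activated endothelium and marrow macrophages. Sparc (osteonectin) binds collagen, Fn1 is fibronectin, Postn (periostin) and the leucine-rich proteoglycans Dcn (decorin) and Lum (lumican) sit among collagen fibres, and Prrx1 is a homeobox factor of limb bud and other mesenchyme. Several of these genes are not limited to stroma. In the early mouse embryo Pdgfra marks primitive endoderm, and parietal endoderm secretes large amounts of Sparc together with laminins and type IV collagen.

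Sparc and Pdgfra were the members called in all 3 comparisons of cell types, so their promoters are shown. Each sequence runs 5′ to 3′ over the 250 bases before the transcription start in RefSeq (assembly GRCm38.p6), and capitals mark a simple tract in it. The Sparc sequence is chr11:55420081-55420330 on the minus strand and the Pdgfra sequence is chr5:75152001-75152250 on the plus strand.
Sparc: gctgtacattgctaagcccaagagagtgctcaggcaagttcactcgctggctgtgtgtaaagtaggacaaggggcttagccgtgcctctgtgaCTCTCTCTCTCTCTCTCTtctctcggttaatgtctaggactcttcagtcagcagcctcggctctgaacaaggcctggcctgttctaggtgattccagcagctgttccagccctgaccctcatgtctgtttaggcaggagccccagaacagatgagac
Pdgfra: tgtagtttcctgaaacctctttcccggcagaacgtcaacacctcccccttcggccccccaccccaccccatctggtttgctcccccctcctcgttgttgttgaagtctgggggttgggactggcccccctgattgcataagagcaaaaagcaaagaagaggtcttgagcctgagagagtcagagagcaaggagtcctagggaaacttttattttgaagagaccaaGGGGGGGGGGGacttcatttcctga
The Sparc tract of alternating C and T is 18 bases long and lies 157 to 140 bases before the start. The Pdgfra tract of G is 11 bases long and lies 25 to 15 bases before the start. Both were picked after the sequences were seen, a run of CTCTCTCT on either strand occurs in 3.53% of 32851 mouse promoters of the same length and a run of GGGGGGGG in 3.91%. Neither promoter held any of 5 other motifs on either strand: the TATA box (TATAAA, in 12.4% of all promoters), the CCAAT box (CCAAT, in 33.8%), the GC box (GGGCGG, in 32.7%), the GATA motif (AGATAA, in 9.99%) and the octamer (ATTTGCAT, in 1.6%). The G and C content was 54% for Sparc and 54.4% for Pdgfra, against a median of 52.4%. Promoters were also matched for Prrx1, Postn and Lepr, 5 members in all.

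Values are log2 RMA values as deposited, and a value with ± is the mean and SD of a cell type. VSEL arrays 2 and 3 correlated at r = 0.989, with an SD of 0.199 for their difference over bright probe sets, while the other 8 pairs within a group had r of 0.831 to 0.957 and an SD of at least 0.491. The pair was counted as 1 sample, VSEL 2+3, which leaves n = 2 for VSEL, 3 for HSC and 3 for ESC. The median of 14 pan-leukocyte genes was 4.99 in VSEL 1 and 11.77 in VSEL 2+3. It was 13.13 to 13.26 in HSC and 4.73 to 4.96 in ESC, so the VSEL libraries did not share 1 profile. The log2 of the summed level of these genes was 14.35 in VSEL 1 and 16.20 in VSEL 2+3. This sum was 16.77 to 16.87 in HSC and 9.47 to 9.69 in ESC. VSEL 1 was therefore near ESC in the median but far above it in the sum. The spiked hybridisation controls averaged 11.31 to 11.73 on VSEL arrays, against 10.31 to 10.68 on HSC and 10.34 to 10.53 on ESC arrays. Across 126 probe sets for olfactory, vomeronasal, taste and keratin-associated genes, taken as silent here, the 95th percentile was 6.59 in VSEL 1 and 6.42 in VSEL 2+3, against 5.73 to 6.03 in HSC and 5.97 to 6.05 in ESC. Whether differences between dim probe sets follow this higher VSEL floor was not tested. The upper quartile of all probe sets was lower in VSEL, at 6.65 in VSEL 1 and 6.65 in VSEL 2+3. It was 7.11 to 7.18 in HSC and 7.12 to 7.16 in ESC. Whether differences between bright probe sets, such as those below ESC, follow this lower quartile was not tested. Centring each library on its silent probe sets gave a median VSEL minus HSC difference of -0.19 over all probe sets, against 0.21 as deposited, and calls of 592 higher and 3421 lower, against 3603 and 2786. For VSEL minus ESC the same centring gave a median of -0.23 against 0.17, and 598 higher and 4158 lower against 3213 and 3121. With each library centred on its own median, 1134 were higher and 2716 lower than in HSC, and 1247 higher and 3158 lower than in ESC. Quantile normalization moved the split against ESC to 3510 higher and 2226 lower.

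**Figure D1:**
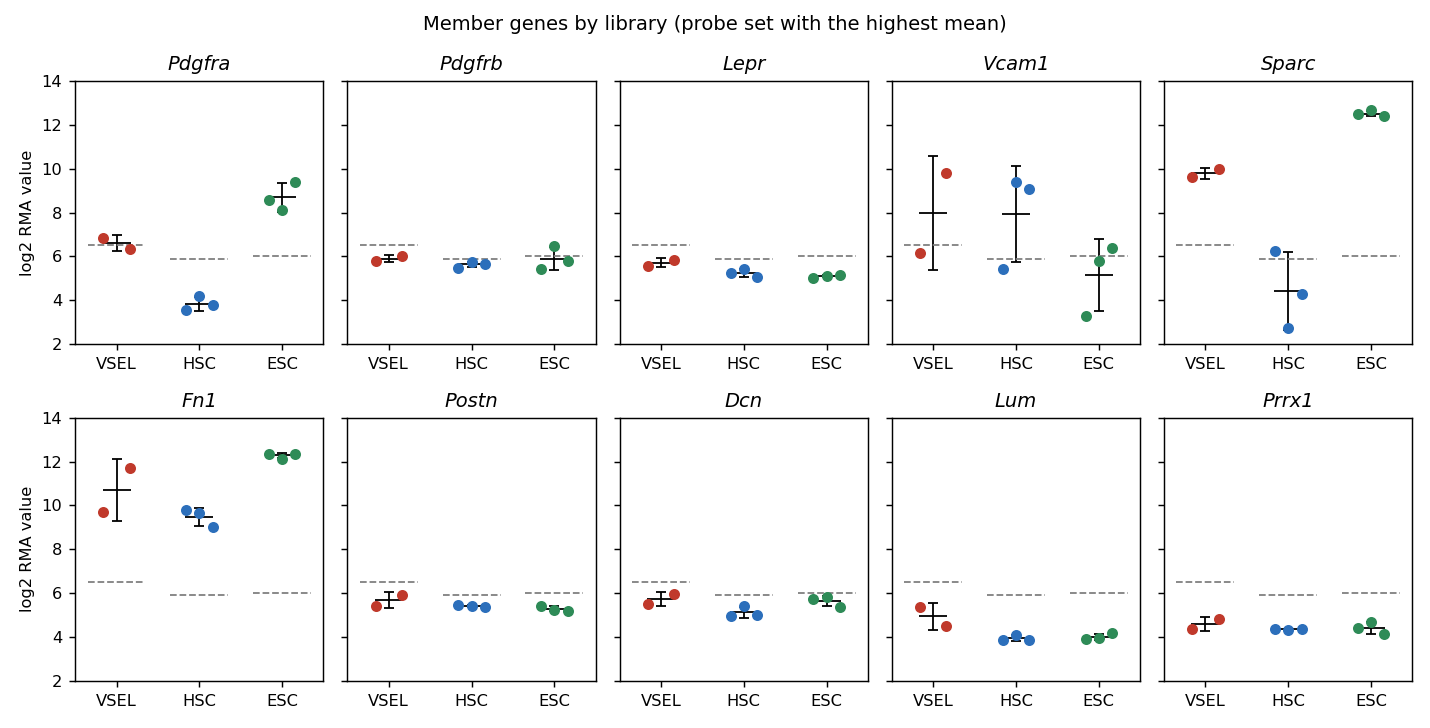
Log2 RMA value (y axis) of each of the 10 genes in VSEL, HSC and ESC (x axis), from the probe set with the highest mean. Points are libraries, bars are mean ± SD (n = 2, 3 and 3), and dashed lines are each group's mean 95th percentile of silent probe sets. Sparc, Pdgfra and Fn1 were highest in ESC, and 5 of the genes stayed below the dashed lines in every group.

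Of the 27 probe sets, 16 stayed within the silent range in all 8 libraries, and 2 lay above it in all 8, Fn1 1426642_at and Sparc 1458204_at. Against HSC, 6 of the 27 were higher in VSEL (limma, adjusted p under 0.05 over all probe sets), belonging to Sparc, Pdgfra, Lum and Lepr, and 0 were lower. Over all probe sets 8.00% were called higher and 6.19% lower. In 15 of the 27, both VSEL libraries lay above all 3 HSC libraries, and in 0 below, against 40.0% and 12.8% of all probe sets. Against ESC, 3 were higher and 2 lower in VSEL, against 7.13% and 6.93% of all probe sets, and 7 lay wholly above and 5 wholly below, against 38.1% and 16.4%. Between HSC and ESC, 0 were higher and 4 lower in HSC, against 4.42% and 6.21%, and 2 lay wholly above and 8 wholly below, against 13.3% and 16.7%. The median difference over the 27 was 0.27 for VSEL minus HSC, 0.05 for VSEL minus ESC and -0.11 for HSC minus ESC, beside medians of 0.21, 0.17 and -0.02 over all probe sets. The 3 comparisons share libraries, so their counts are not independent.

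**Figure D2:**
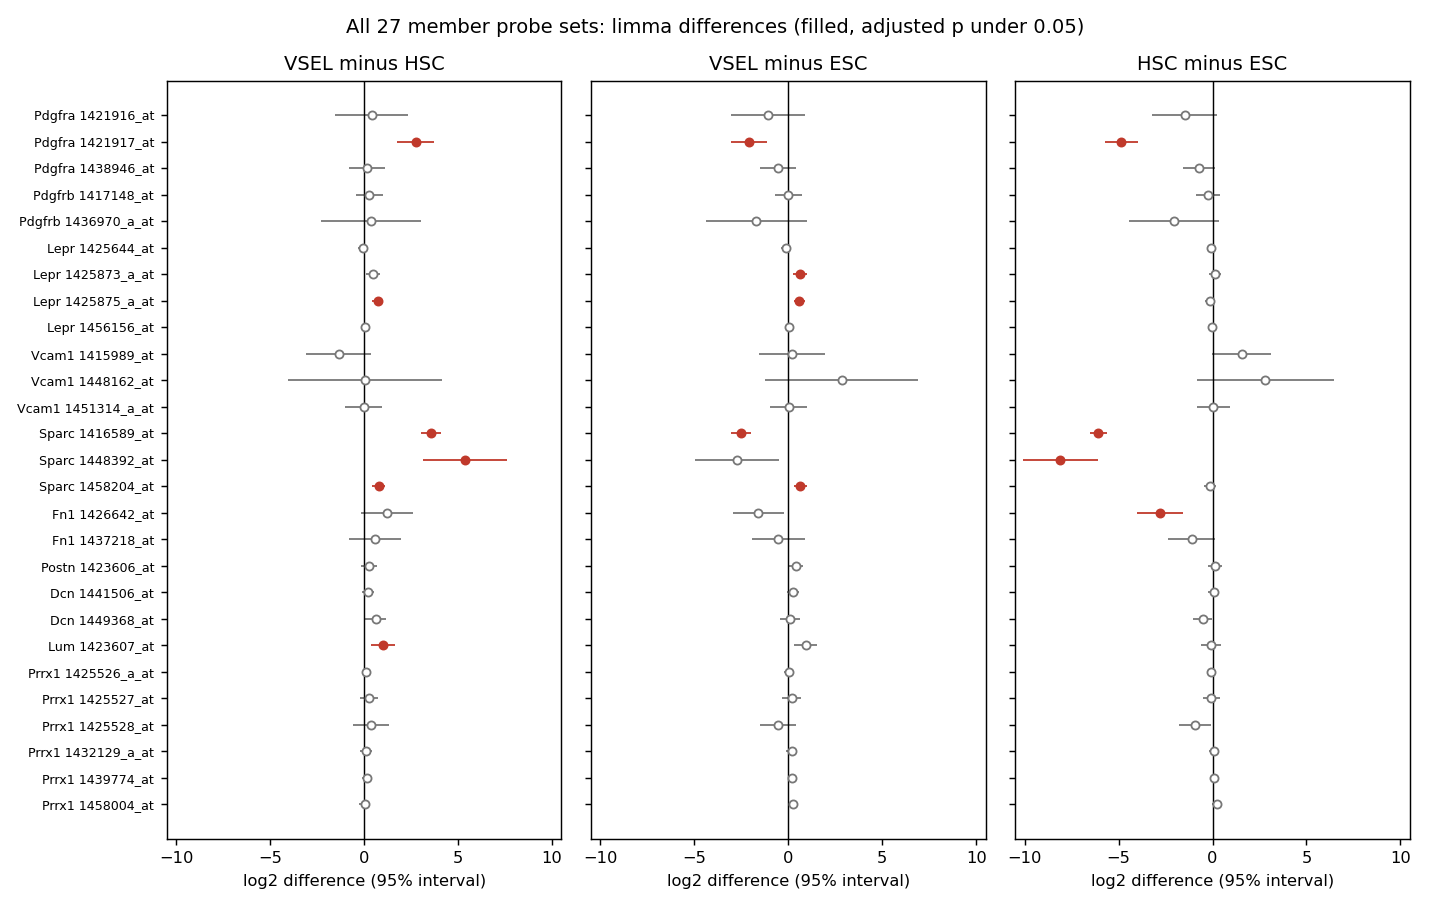
Log2 difference (x axis) with its 95% interval for each of the 27 probe sets (rows), as VSEL minus HSC, VSEL minus ESC and HSC minus ESC. Filled red points passed the limma test at an adjusted p of 0.05, which was 6, 5 and 4 of them, and the long bars belong to genes whose libraries of a group lay far apart.

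Sparc, the collagen-binding glycoprotein, showed the widest spread of the genes, with an order of ESC, then VSEL, then HSC in its bright probe sets. Probe set 1448392_at read 9.60 in VSEL 1 and 9.97 in VSEL 2+3, against 6.26, 2.73 and 4.27 in HSC 1, 2 and 3, and 12.49, 12.66 and 12.41 in ESC 1, 2 and 3. No library of one cell type overlapped another's, and HSC 2 and 3 were within the silent range. VSEL at 9.79 ± 0.26 stood 5.37 log2 units (SE 0.92) above HSC at 4.42 ± 1.77 (adjusted p = 0.0175), and no fold is given because 2 of the 3 HSC libraries lay within the silent range. This call was lost in a fit of VSEL and HSC alone, without VSEL 1 or without VSEL 2+3, with differences of 5.37, 5.55 and 5.18 and adjusted p of 0.0776, 0.0529 and 0.0568 (0.00345 to 0.0776 over all alternatives). Wherever a VSEL library is left out, the lone one that stays is assumed to vary like the other cell types. VSEL minus ESC was -2.73 (SE 0.92, 6.64-fold lower), with ESC at 12.52 ± 0.13, which missed the threshold (adjusted p = 0.098) but passed it in a fit of VSEL and ESC alone, with all 9 arrays, without HSC 1 and without HSC 2 (0.00618 to 0.241 over all alternatives). HSC minus ESC was -8.10 (adjusted p = 0.0016). RNA quality also differed between these cell types: the 3′ minus 5′ signal averaged over the Gapdh and actin controls lay between 0.71 and 1.07 in VSEL and between 0.73 and 0.96 in HSC, against a range of 0.34 to 0.45 in ESC. Its part in the differences from ESC was not tested.

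The second bright Sparc probe set gave the same order with a tighter HSC group. Probe set 1416589_at read 8.80 and 8.98 in VSEL 1 and VSEL 2+3, against 5.72, 4.98 and 5.33 in HSC and 11.38, 11.40 and 11.47 in ESC. The HSC values were all within the silent range, so a fold against them is given as a lower bound, taken against the mean 95th percentile of silent probe sets in HSC. VSEL at 8.89 ± 0.13 stood 3.54 (SE 0.22, at least 7.91-fold) above HSC at 5.34 ± 0.37 (adjusted p = 0.000393). VSEL minus ESC was -2.53 (SE 0.22, 5.77-fold lower), with ESC at 11.42 ± 0.05 (adjusted p = 0.00202). HSC minus ESC was -6.07 (at least 45.7-fold lower, adjusted p = 1.23e-05). All 3 calls of this probe set passed under the 16 alternatives that tested it.

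The third Sparc probe set did not follow the others. Probe set 1458204_at read 7.36 and 7.51 in VSEL, against 6.46, 6.78 and 6.75 in HSC and 6.91, 6.71 and 6.81 in ESC. It was higher in VSEL than in HSC by 0.77 (SE 0.14, adjusted p = 0.0215) and than in ESC by 0.63 (SE 0.14, adjusted p = 0.0371), so against ESC it was called in the direction opposite to 1416589_at. Centring on silent probe sets ended both calls, at 0.37 against HSC (adjusted p = 0.144, 0.00248 to 0.144 over all alternatives) and 0.23 against ESC (adjusted p = 0.303, 0.00435 to 0.303 over all alternatives).

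Pdgfra, the receptor of platelet-derived growth factor A chains among others, followed the order of the bright Sparc probe sets. Probe set 1421917_at read 6.86 in VSEL 1 and 6.35 in VSEL 2+3, against 3.56, 4.20 and 3.79 in HSC and 8.56, 8.13 and 9.41 in ESC. The cell types did not overlap, but VSEL 2+3 and all HSC libraries lay within the silent range. VSEL at 6.60 ± 0.36 stood 2.75 (SE 0.40) above HSC at 3.85 ± 0.32 (adjusted p = 0.0109), a call that held in all 17 alternatives. VSEL minus ESC was -2.10 (SE 0.40), with ESC at 8.70 ± 0.65 (adjusted p = 0.0245). It no longer passed with quantile normalization, array weights, a fit of VSEL and ESC alone, without VSEL 2+3 and without ESC 1 (adjusted p 0.00546 to 0.0816 over all alternatives). HSC minus ESC was -4.85 (at least 6.96-fold lower by the same bound, adjusted p = 0.000416). The other Pdgfra probe sets passed in no comparison: 1421916_at read 5.19 and 5.18 in VSEL, against 4.40, 4.92 and 5.05 in HSC and 7.71, 6.45 and 4.67 in ESC, and 1438946_at was within the silent range throughout.

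Pdgfrb, the pericyte receptor of the pair, was called in no comparison and had its highest values in ESC 2. Probe set 1417148_at read 5.79 and 6.02 in VSEL, against 5.50, 5.77 and 5.65 in HSC and 5.44, 6.46 and 5.79 in ESC. Probe set 1436970_a_at read 3.43 and 3.03 in VSEL, against 2.63, 3.03 and 2.92 in HSC and 2.88, 7.13 and 4.76 in ESC. ESC 2 was the single library above the silent range, in both probe sets. The VSEL minus HSC difference of 1417148_at was 0.27 with a 95% interval of -0.44 to 0.98 (adjusted p = 0.549), and VSEL minus ESC was 0.01 with an interval of -0.70 to 0.72 (adjusted p = 0.99).

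Lepr, the receptor that marks niche stroma in adult mouse marrow, was within the silent range in all 4 probe sets and 8 libraries. Probe set 1425875_a_at read 5.79 and 5.74 in VSEL, against 4.92, 5.05 and 5.19 in HSC and 5.19, 5.17 and 5.18 in ESC. VSEL lay above the other libraries by 0.71 against HSC (SE 0.12, adjusted p = 0.0148) and by 0.59 against ESC (SE 0.12, adjusted p = 0.0259). Probe set 1425873_a_at read 5.56 and 5.86 in VSEL, against 5.24, 5.43 and 5.07 in HSC and 5.04, 5.13 and 5.15 in ESC, with a difference of 0.60 against ESC (SE 0.15, adjusted p = 0.0494) and of 0.47 against HSC that missed the threshold (adjusted p = 0.0908). Centring on silent probe sets ended all 3 calls, with differences of 0.31, 0.19 and 0.20 and adjusted p of 0.164, 0.347 and 0.434 (lowest over all alternatives 0.00403, 0.00894 and 0.0165, highest those with this centring).

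Among leptin pathway genes, 0 of 8 were higher and 3 were lower in VSEL than in HSC, against 9.29% and 9.04% of all genes. The 3 were Socs3, the feedback inhibitor of the receptor (-4.0, adjusted p = 0.000866), Leprotl1, a gene related to one that shares the Lepr locus (-3.96, adjusted p = 0.00146), and the adaptor Sh2b1 (-2.10, adjusted p = 0.0245). Against ESC, 1 was higher, the receptor-bound kinase Jak2 (6.34, adjusted p = 0.00314), and 2 were lower, Leprotl1 and Socs3, against 7.59% and 10.3% of all genes. Jak2 read 11.39 and 9.76 in VSEL, against 9.82, 8.39 and 9.95 in HSC and 4.02, 4.45 and 4.24 in ESC. The Jak2 values in ESC all lay within the silent range. Between HSC and ESC, 4 were higher and 0 lower in HSC, against 6.38% and 8.89%. Jak2 and Socs3 serve many cytokine receptors, and Lep, the ligand itself, was called in no comparison. The count lower than in HSC ran between 2 and 5 over the alternatives, with 5 without VSEL 1. The count higher than in ESC was 2 without VSEL 1 and 3 without VSEL 2+3, and 1 gene was higher than in HSC without VSEL 2+3. The count higher in HSC than in ESC ran between 1 and 6, with 2 without HSC 1 or HSC 2 and 1 without ESC 2 or ESC 3.

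Vcam1, the integrin ligand, differed more within cell types than between them. Probe set 1448162_at read 6.14 in VSEL 1 and 9.82 in VSEL 2+3, against 5.43, 9.38 and 9.06 in HSC 1, 2 and 3 and 3.29, 5.77 and 6.37 in ESC 1, 2 and 3. The library numbered 1 was the lowest in each cell type, and the groups overlapped. VSEL at 7.98 ± 2.60 and HSC at 7.95 ± 2.19 differed by 0.03 with a 95% interval of -4.06 to 4.12 (adjusted p = 0.993), and VSEL minus ESC at 5.15 ± 1.63 was 2.84 with an interval of -1.26 to 6.93 (adjusted p = 0.291).

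A second Vcam1 probe set, described after its values were seen, had its highest values in HSC 2 and HSC 3. Probe set 1415989_at read 6.17 and 6.15 in VSEL, against 6.05, 8.46 and 8.05 in HSC and 5.37, 6.17 and 6.39 in ESC. Both VSEL libraries were within the silent range here, although VSEL 2+3 was at 9.82 in the first probe set, so the probe sets disagree on Vcam1 in that library. All HSC libraries, ESC 2 and ESC 3 lay above it. The VSEL values were like those of ESC 2 and ESC 3, where the 95th percentile of silent probe sets was lower, at 5.97 and 6.00. It was 6.59 in VSEL 1 and 6.42 in VSEL 2+3. The difference of -1.36 between VSEL and HSC was not called (adjusted p = 0.237), but it was -2.09 (adjusted p = 0.0348) without HSC 1, and HSC minus ESC was then 2.28 (adjusted p = 0.0158) in place of 1.54 (adjusted p = 0.243). Over all alternatives these adjusted p ran from 0.0348 to 0.423 and from 0.0158 to 0.492. Probe set 1451314_a_at ranged from 5.69 in HSC 1 to 6.98 in HSC 3, with 6.11 and 6.20 in VSEL and 5.86 to 6.53 in ESC.

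**Figure D3:**
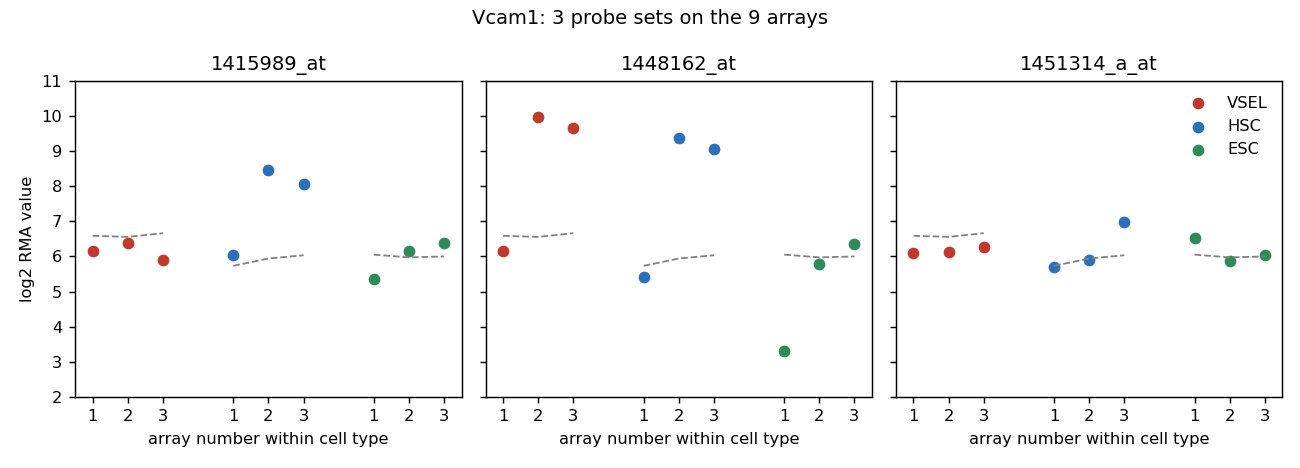
Log2 RMA value (y axis) of the 3 Vcam1 probe sets on each of the 9 arrays, by array number within cell type (x axis). Dashed lines are each array's 95th percentile of silent probe sets. In 1448162_at, array 1 of each cell type was the lowest, at 6.14 in VSEL, 5.43 in HSC and 3.29 in ESC, and VSEL arrays 2 and 3 read 9.97 and 9.67.

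Marrow macrophages carry Vcam1, so their markers were read beside it. Named here after their values were seen, the genes that lay far apart within VSEL did not share 1 direction. Csf1r, the macrophage growth factor receptor, was 6.26 in VSEL 1 and 9.25 in VSEL 2+3, against 10.39 to 11.50 in HSC and 6.34 to 6.42 in ESC. By contrast, the complement gene C1qa was 10.55 in VSEL 1 and 5.64 in VSEL 2+3, against values in HSC of 5.90 to 6.27 and in ESC of 4.70 to 5.37. Its partner C1qb was 8.19 in VSEL 1 and 11.37 in VSEL 2+3, against 6.88 to 8.45 in HSC and 5.83 to 6.69 in ESC. Of 13 macrophage genes, 5 lay above the silent range in each VSEL library, against 8 or 9 in HSC and 3 to 6 in ESC. The log2 of their summed level was 11.56 and 12.09 in VSEL, against 11.35 to 12.19 in HSC and 9.20 to 9.50 in ESC. In VSEL against HSC, 1 of the 13 was higher and 2 lower, against 9.29% and 9.04% of all genes, and in VSEL against ESC 2 were higher and 0 lower, against 7.59% and 10.3%. Over the alternatives these counts ran between 0 and 2, 0 and 3, 1 and 3, and 0 and 1. Leaving out VSEL 1 took the 2 lower to 0, leaving out HSC 1 or HSC 3 took the 1 higher to 0 and the 2 lower to 1, and leaving out ESC 2 or ESC 3 took the 2 lower to 1. The 1 higher than in HSC became 2 without VSEL 2+3, and the 2 higher than in ESC became 1 whichever HSC or ESC library was left out, with 1 lower without HSC 2. Of 13 endothelial genes 0 were called in either VSEL comparison. The part of macrophage or endothelial RNA in the Vcam1 values was not tested.

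The integrin and adhesion genes read beside Vcam1 and fibronectin were lower in VSEL than in HSC or not called. Of 11 genes for integrins and related adhesion proteins, 0 were higher and 3 lower in VSEL than in HSC: Itgb7 (-4.71, adjusted p = 0.000288), Itgb3 (-3.83, adjusted p = 0.0069) and Itgb1 (-1.70, adjusted p = 0.0332), all integrin beta chains, against 9.29% and 9.04% of all genes. Without VSEL 1, 5 were lower. With quantile normalization, with array weights and without HSC 1, HSC 2, HSC 3 or ESC 3, 2 were lower. Against ESC, 0 were higher and 2 lower in VSEL, Itga5 of the fibronectin receptor (-1.97, adjusted p = 0.00615) and Itgb7 (-1.07, adjusted p = 0.0464), against 7.59% and 10.3% of all genes. Without VSEL 2+3, 3 were higher and 1 lower, and 1 was lower whichever HSC library was left out, without ESC 2 and without ESC 3. Itga4, the alpha chain that binds Vcam1, split VSEL, at 10.49 in VSEL 1 and 5.93 in VSEL 2+3, against 10.52 to 10.98 in HSC and 4.95 to 5.44 in ESC. Vcam1 1448162_at was low where Itga4 was high within VSEL, and the reverse. Between HSC and ESC, 4 were higher in HSC, led by Icam2 and Itga4, and 1 was lower, Itga5, against 6.38% and 8.89% of all genes, with 2 higher without ESC 2.

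Fn1, fibronectin, was bright in every library and split the VSEL pair. Probe set 1426642_at read 9.68 in VSEL 1 and 11.69 in VSEL 2+3, against 9.78, 9.66 and 9.0 in HSC and 12.36, 12.14 and 12.35 in ESC. VSEL 1 lay among the HSC libraries, and VSEL 2+3 lay between HSC and ESC. VSEL at 10.69 ± 1.42 and HSC at 9.48 ± 0.42 differed by 1.20 with a 95% interval of -0.17 to 2.58 (adjusted p = 0.193), and VSEL minus ESC at 12.28 ± 0.12 was -1.59 with an interval of -2.97 to -0.22 (adjusted p = 0.111). Without VSEL 1 the difference from HSC was 2.21 and passed (adjusted p = 0.0199, up to 0.741 over all alternatives), and without VSEL 2+3 the difference from ESC was -2.60 and passed (adjusted p = 0.0127, up to 0.292 over all alternatives). In both, the spread came from HSC and ESC alone. HSC minus ESC was -2.80 (SE 0.51, 6.96-fold lower, adjusted p = 0.0177), a call lost when HSC 3 or any of the ESC libraries was left out (adjusted p 0.0567 to 0.0632). Within VSEL the leukocyte median was also lower in VSEL 1 and higher in VSEL 2+3. Across cell types, HSC had the highest leukocyte median and the lowest Fn1 mean. Any part of leukocyte RNA in the Fn1 values was not tested. Fn1 1437218_at was within the silent range in all libraries.

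Postn, Dcn, Lum and Prrx1, the members most tied to fibroblasts and limb or skeletal mesenchyme, gave no level above the silent range. Postn read 5.41 and 5.93 in VSEL, against 5.45, 5.41 and 5.38 in HSC and 5.41, 5.25 and 5.19 in ESC. Dcn 1449368_at read 5.51 and 5.97 in VSEL, against 4.96, 5.41 and 5.03 in HSC and 5.74, 5.83 and 5.38 in ESC. Prrx1 1425527_at read 4.37 and 4.83 in VSEL, against 4.37, 4.32 and 4.37 in HSC and 4.43, 4.68 and 4.14 in ESC, and its other 5 probe sets ranged from 2.84 to 5.36 over all libraries. None of these 3 genes was called in any comparison, and the values show only that they were not separable from silent genes on these arrays. For VSEL minus HSC, the 95% interval was -0.16 to 0.67 for Postn, 0.06 to 1.16 for Dcn 1449368_at and -0.25 to 0.74 for Prrx1 1425527_at.

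Lum was the exception in the test but not in level. It read 5.37 in VSEL 1 and 4.52 in VSEL 2+3, against 3.88, 4.09 and 3.84 in HSC and 3.93, 3.96 and 4.18 in ESC. Both VSEL libraries lay above the rest and all were within the silent range. The VSEL minus HSC difference was 1.0 (SE 0.26, adjusted p = 0.0496), and the call was lost in 13 of 16 alternatives, with 0.60 (adjusted p = 0.191) after centring on silent probe sets (0.00986 to 0.191 over all alternatives).

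Stromal identity genes outside the 10 were read from a list of 38, of which 35 were measured. Against HSC, 6 were higher and 1 lower in VSEL, against 9.29% and 9.04% of all genes. Against ESC, 2 were higher and 2 lower, against 7.59% and 10.3%. The median difference over the list was 0.48 from HSC and 0.08 from ESC, beside 0.22 and 0.11 over all genes. Igfbp5, an insulin-like growth factor binding protein, read 9.15 in VSEL 1 and 6.07 in VSEL 2+3, against 3.16, 3.55 and 3.87 in HSC and 8.57, 8.23 and 8.66 in ESC, and was 4.08 higher in VSEL than in HSC (SE 0.83, adjusted p = 0.0278). Its VSEL 2+3 value and all its HSC values lay within the silent range, so in VSEL it left that range in VSEL 1 alone. Cxcl12, the chemokine that retains blood stem cells in marrow, read 8.10 and 7.44 in VSEL, against 5.62, 4.64 and 4.91 in HSC and 6.98, 4.89 and 4.97 in ESC, and was 2.71 higher in VSEL than in HSC (SE 0.69, adjusted p = 0.0492). The Cxcl12 values in HSC all lay within the silent range. The lower one was Thy1, a surface protein shared with lymphocytes and blood stem cells, at 5.86 and 6.56 in VSEL, against 13.23, 13.61 and 13.77 in HSC and 7.0, 8.14 and 6.01 in ESC (-7.32, adjusted p = 0.00116). The count of higher genes against HSC ran between 1 without HSC 3 and 11 with all 9 arrays kept separate, and was 2 without VSEL 1, HSC 1, HSC 2 or ESC 3 and 3 without VSEL 2+3. Igfbp4, another binding protein of this family, had the largest called difference from ESC. It read 12.54 and 13.02 in VSEL, against 10.28 to 11.02 in the 3 HSC libraries and 10.43, 8.71 and 9.85 in ESC, and was 3.11 higher in VSEL than in ESC (SE 0.52, adjusted p = 0.0164). Alpl, the alkaline phosphatase of osteoblasts and of pluripotent cells, stood between the others, at 8.11 and 8.06 in VSEL, against 5.21, 6.61 and 5.34 in HSC and 9.79, 10.37 and 10.30 in ESC. VSEL minus ESC was -2.07 (adjusted p = 0.0316). Des, the desmin gene of muscle and pericytes, read 7.82 and 8.07 in VSEL, against 7.37, 7.23 and 7.11 in HSC and 9.51, 9.20 and 9.01 in ESC, with VSEL minus ESC at -1.30 (adjusted p = 0.00993). Adipoq, named after its values were seen, read 7.55 in VSEL 1 and 3.33 in VSEL 2+3. It read 3.06 to 3.13 in HSC and 2.78 to 3.15 in ESC, so VSEL 1 alone left the silent range. Against ESC the count of higher genes ran between 1 and 7 over the alternatives, with 1 without VSEL 1, VSEL 2+3, ESC 2 or ESC 3, and that of lower ones between 0 and 3, with 1 without VSEL 2+3, ESC 1 or ESC 3.

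Of other matrix genes, 33 of the 36 listed were measured. In VSEL against HSC, 11 were higher and 1 lower, against 9.29% and 9.04% of all genes, in VSEL against ESC 3 were higher and 7 lower, against 7.59% and 10.3%, and in HSC against ESC 1 was higher and 11 lower, against 6.38% and 8.89%. The median difference of VSEL was 0.61 from HSC and -0.15 from ESC, beside 0.22 and 0.11 over all genes. The 3 largest called differences from HSC were of laminin chains. The laminin chain gene Lama1 read 8.96 and 8.90 in VSEL, against 4.24, 4.68 and 4.78 in HSC and 11.97, 11.76 and 11.97 in ESC, which made 4.36 above HSC (SE 0.18, adjusted p = 8.89e-05) and a VSEL minus ESC difference of -2.98 (SE 0.18, adjusted p = 0.000849). The Lama1 values in HSC all lay within the silent range. Lamb1 was 3.79 and Lamc1 4.21 above HSC (adjusted p = 5e-05 and 0.00974). The VSEL minus ESC difference was -3.32 for Serpinh1, the collagen chaperone (adjusted p = 0.00538), and -2.66 for the fibulin gene Fbln1 (adjusted p = 0.00028). Some matrix genes, named after their values were seen, split VSEL 1 from VSEL 2+3. Tgfbi read 5.06 and 11.87 and Fbln5 6.15 and 10.12, while Lamc1 split the other way, at 10.40 and 8.58. Over the alternatives, VSEL against ESC gave 0 to 3 higher and 6 to 10 lower. HSC against ESC gave 1 higher and 8 to 13 lower. The count of higher genes against HSC ran between 5 and 12 over the alternatives, with 7 without HSC 3 or ESC 3, and the 1 lower was not called without VSEL 1 or without VSEL 2+3.

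Of the PDGF pathway, 12 genes for ligands and for proteins that act after the receptors, 2 were higher and 5 lower in VSEL than in HSC, against 9.29% and 9.04% of all genes, and 1 higher and 4 lower in VSEL than in ESC, against 7.59% and 10.3%. The 2 higher than in HSC became 0 with array weights, without VSEL 1, without VSEL 2+3 and without HSC 1, and 1 without HSC 2, HSC 3 or ESC 3, while the other 3 counts ran between 4 and 5, stayed at 1, and ran between 3 and 5. The ligand gene Pdgfa read 7.27 and 7.19 in VSEL, against 5.65, 5.81 and 5.23 in HSC and 10.14, 8.70 and 9.28 in ESC, an order like that of Pdgfra. VSEL minus ESC was -2.15 (SE 0.41, adjusted p = 0.0242) and VSEL minus HSC 1.66 (SE 0.41, adjusted p = 0.0465). VSEL minus HSC was -3.82 for Pik3ca, a catalytic subunit of the lipid kinase used by the receptors (adjusted p = 0.00566), -3.58 for the phospholipase Plcg1 (adjusted p = 0.0011) and -1.98 for the adaptor Grb2 (adjusted p = 0.0103). Pik3r1, the regulatory subunit, was 4.46 higher in VSEL than in ESC (adjusted p = 0.00928). All values of Pdgfa in HSC, of Pik3ca in VSEL and of Pik3r1 in ESC lay within the silent range.

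Because Pdgfra and Sparc are also genes of the early endoderm, 19 markers of extraembryonic endoderm were read beside them. Against HSC 11 were higher and 1 lower in VSEL, against ESC 0 were higher and 12 lower, and in HSC against ESC 1 was higher and 14 lower. Over all genes 9.29% and 9.04% were called in VSEL against HSC, 7.59% and 10.3% in VSEL against ESC, and 6.38% and 8.89% in HSC against ESC. The counts of the majority direction were 8 to 11, 9 to 13 and 13 to 14 over 16 alternatives. The median level was 8.84 in VSEL 1 and 7.79 in VSEL 2+3, against 4.76 to 5.26 in HSC and 9.94 to 10.27 in ESC, and 13 and 12 of the 19 lay above the silent range in VSEL, against 3 to 6 in HSC and 15 or 16 in ESC.

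Lama1, Cubn and Col4a2 had the largest called differences from HSC in this list. Cubn, an uptake receptor of visceral endoderm, read 7.45 and 7.96 in VSEL, against 3.00, 3.54 and 3.76 in HSC and 10.70, 10.70 and 9.94 in ESC (4.27 above HSC, adjusted p = 0.00104). The Cubn values in HSC all lay within the silent range. Col4a2, a type IV collagen chain, read 9.36 and 9.57 in VSEL, against 6.46, 4.68 and 4.59 in HSC and 12.22, 12.33 and 12.21 in ESC (4.23 above HSC, adjusted p = 0.0072). Some markers, named here after their values were seen, did not share the order: Foxa2 was within the silent range in all libraries, and Srgn, which blood cells also express, read 11.19 and 13.04 in VSEL, against 14.10 to 14.31 in HSC and 11.82 to 12.41 in ESC. As the log2 of its summed level, the list gave 13.44 and 13.65 in VSEL, against 14.22 to 14.47 in HSC and 14.97 to 15.07 in ESC. Unlike the median, this sum was higher in HSC than in VSEL. Srgn alone read 14.10 to 14.31 in HSC and so made up most of the HSC sum. Of 10 pluripotency genes, VSEL had 9 called above HSC and 9 called below ESC, against 9.29% and 10.3% of all genes. Their median was 9.44 and 9.83 in VSEL, against 3.93 to 4.16 in HSC and 12.14 to 12.20 in ESC. Any part of endoderm-like or pluripotent cells or RNA in the Sparc and Pdgfra values was not tested.

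Each VSEL library was also set against the ESC mean. The difference was -2.92 in VSEL 1 and -2.55 in VSEL 2+3 for Sparc 1448392_at, -2.62 and -2.44 for Sparc 1416589_at, and -1.84 and -2.35 for Pdgfra 1421917_at. For Fn1 it was -2.60 in VSEL 1 and -0.59 in VSEL 2+3. The VSEL libraries thus lay within 0.51 of each other in Sparc and Pdgfra and 2.0 apart in Fn1.

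**Figure D4:**
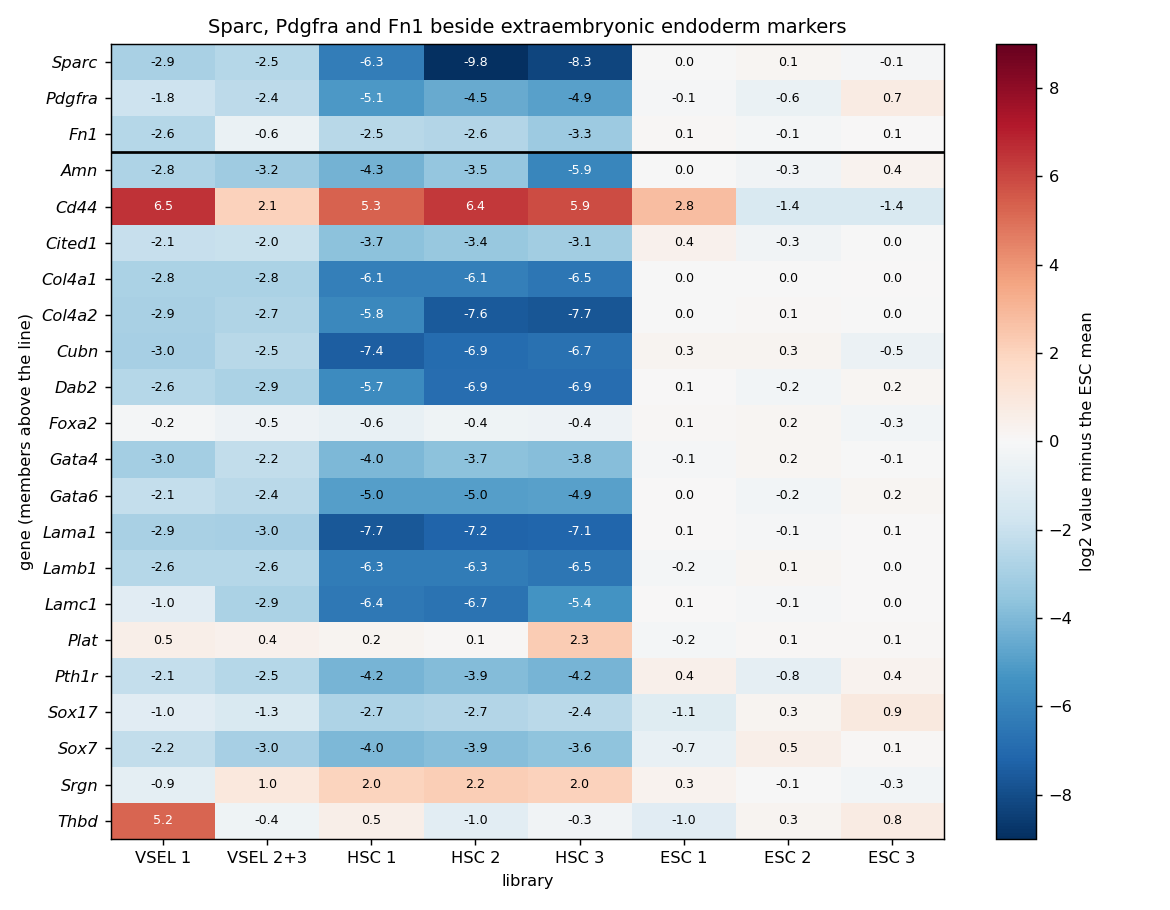
Log2 value minus the ESC mean (colour and number) for Sparc, Pdgfra and Fn1 and, under the line, 19 extraembryonic endoderm markers (rows) in the 8 libraries (columns). Most rows are palest in ESC, intermediate in VSEL and darkest blue in HSC, with Cd44, Srgn, Thbd, Plat and Foxa2 apart. Fn1 is near ESC in VSEL 2+3 alone.

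The genes most like each member were taken among 10021 probe sets of other genes whose values also spanned at least 3 log2 units, by Pearson's r over the 8 libraries. The libraries fall into cell types, so r follows the group means. Pdgfra was closest to Stra8, a gene induced by retinoic acid (r = 0.997), Pla2g12b (0.997) and Mef2b (0.996). Stra8 read 8.18 and 8.02 in VSEL, against 5.55, 6.25 and 5.72 in HSC and 10.00, 9.71 and 10.96 in ESC. Sparc was closest to Rps24 (0.993), Col4a2 (0.991) and Mycn (0.990), and Fn1 to Srm, a polyamine synthesis enzyme (0.994), Lyar (0.988) and Stoml2 (0.985). Srm shared the split of Fn1 within VSEL, at 10.81 and 12.26, against 9.95 to 10.67 in HSC and 12.71 to 13.14 in ESC. Vcam1 had no such close match: Pdlim7 reached 0.910, Alox15 0.889 and Eif2ak1 0.881.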

How the data were processed

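The deposited table held log2 expression values for 45101 probe sets, for which the submitters' processing notes name RMA and Partek 6.5. Their settings and the set of arrays normalized together were not given in the sources used here. After 64 array controls were left out, 45037 probe sets were tested, of which 34945 had 1 gene, 932 several and 9160 none listed in the platform annotation. No probe set with several genes held a member. Symbols of 34741 were updated through RefSeq (GRCm38.p6) and 204 kept.

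Values were used as deposited. VSEL arrays 2 and 3 were averaged, because both their correlation and the SD of their difference over probe sets with a mean above 9 lay outside the range of all other pairs. One limma 3.58.1 fit in R 4.3.3 (lmFit, eBayes, two-sided) held all cell types (5 residual degrees of freedom, and 1.33 from the prior). It assumes 1 spread for all cell types. Benjamini-Hochberg adjustment ran over every probe set within a contrast, and adjusted p under 0.05 was a call. The number of arrays limits the precision.

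A value was within the silent range at or below the 95th percentile of 126 silent probe sets of its library. Lists were read from each gene's probe set with the highest mean, with calls from the same fit. All members were described, from that probe set and any other called one, and lists by their counts and up to 3 called genes with the largest differences, plus genes named later as such. The members and lists were chosen with earlier results of these data known. Alternatives covered 9 separate arrays, the replicate number as a block, normalization, centring, a filter, fits of pairs of cell types, array weights, 1 probe set per gene and leaving out each library. Centring on silent probe sets was chosen after seeing the data.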

Additional observations from a re-analysis of the deposited data

How the results depend on the processing

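No called member difference changed sign under any alternative. The count of member probe sets higher in VSEL than in HSC, 6 as reported, was 2 in a fit of those cell types alone and 3 with libraries centred on silent probe sets, and 4 to 5 with a library left out. The count of those lower was 0, and 1 without HSC 1 (Vcam1 1415989_at). In VSEL against ESC the count of higher ones, 3 as reported, was 0 with median centring, with centring on silent probe sets, with array weights and with only the probe sets above the median tested, 1 in a fit of those cell types alone, and 0 to 2 with a library left out. The count of lower ones, 2 as reported, was 1 with quantile normalization and with array weights, and 1 to 3 with a library left out. In HSC against ESC the 4 lower ones became 3 to 5 with a library left out, and the 0 higher ones became 0 to 1. Leaving out a library removes a residual degree of freedom, and the causes of the other changes were not tested. With only a few arrays per cell type and many members within the silent range, small differences cannot be resolved.

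The numbers of the labels were not shown to pair libraries. Deviations of arrays with the same number correlated from -0.09 to 0.16 across cell types. With all 9 arrays and the replicate number as a block, 1 member probe set was higher in HSC than in ESC, against 0 both as reported and with all 9 arrays and no block. It was Vcam1 1448162_at, at 2.81 (adjusted p = 0.00435), which was then also 3.45 higher in VSEL than in ESC (adjusted p = 0.0038). Without the block, the 9 arrays gave adjusted p of 0.341 and 0.133. Over all alternatives these adjusted p ran up to 0.664 and 0.803. With the block and 9 arrays, 5 were higher in VSEL than in HSC and 4 higher than in ESC, against 7 and 3 with 9 arrays and no block.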
